A study of Mus musculus with 8 samples.

Results

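The 4 lung arrays of mice given dexamethasone, titled Dex and RA-Dex, were compared with the 4 arrays of mice that were not, titled Dil and RA, which together are all 8 arrays of the series. Pooling over retinoic acid sets 4 measurements on each side, and most of the account below is of changes under 2-fold, many of which were not called with 2 arrays on each side. According to the labels, mice 3 days old were given oil or retinoic acid, saline or dexamethasone followed on day 4, and the lungs were then snap frozen. Dex stands for oil followed by dexamethasone, RA for retinoic acid followed by saline, and RA-Dex for retinoic acid followed by dexamethasone. Dil is defined by no label. It was read as oil followed by saline, the 1 treatment that no other title names. Each group has 2 arrays, lettered a and b, and the sources used here do not state whether these are separate animals, pools or repeat hybridisations, nor the strain, the doses or the time from dexamethasone to collection. The p-values therefore measure only the spread between these arrays, which may be technical.

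Dexamethasone is a synthetic glucocorticoid. It binds the glucocorticoid receptor, which then moves to the nucleus and raises the transcription of some genes and lowers that of others. In rodents the first weeks after birth are the period of septation, in which new walls divide the air sacs into alveoli. Glucocorticoids given in this period thin these walls early and impair septation, and retinoic acid has been studied as an agent that opposes this. Septation needs dividing fibroblasts, endothelial cells and epithelial cells, and growth factors that pass between them.

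A group of genes that recurs below encodes the machinery that copies DNA, and many of its members are textbook targets of E2F, the family of factors that turns genes on at the start of S phase. Stretches of the RefSeq windows of build GRCm38.p6 (250 bases before to 50 bases after each annotated start) are printed for 5 of these genes. The 5 were chosen because they were called lower with dexamethasone and hold a motif, so they do not link the motif to the fall. The stretch lies in the 5′ flank for Mcm5 and Mcm7, and just after the start for the others. Capitals mark an E2F motif on either strand, and in Mcm5 they span 2 overlapping motifs.
Mcm5, chr8:75109332-75109391, plus strand: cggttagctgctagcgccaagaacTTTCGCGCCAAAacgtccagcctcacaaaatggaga
Mcm7, chr5:138172015-138172074, minus strand: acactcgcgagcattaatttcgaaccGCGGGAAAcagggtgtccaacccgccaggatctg
Mcm3, chr1:20820265-20820294, minus strand: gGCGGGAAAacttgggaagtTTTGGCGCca
Cdt1, chr8:122568035-122568064, plus strand: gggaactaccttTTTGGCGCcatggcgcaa
Pold1, chr7:44548766-44548795, minus strand: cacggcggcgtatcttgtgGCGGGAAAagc

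The motifs searched were TTTGGCGC, TTTCCCGC, TTTCGCGC and TTTGCCGC on both strands, overlaps included. At least 1 of them was in 9 of the 33 windows (27.3%) of the 25 measured DNA replication genes that had a window, of 27 measured. The share was 2.26% of all 32851 windows and 3.99% of the 5868 windows of measured genes. It was 5.39% (13 of 241) in the windows of genes called lower with dexamethasone and 2.4% (7 of 292) in those called higher. The windows of genes called lower include 10 of DNA replication genes, of which 5 held a motif. These 10 windows belong to 8 of the 9 replication genes called lower. Rfc3, Lig1, Cdc6 and Pola1 of the same list also held a motif and were not called. The half-site of the glucocorticoid receptor, AGAACA on either strand, was in 14.1% of the windows of genes called lower, in 12.7% of those called higher and in 12.6% of those of all measured genes. These shares describe letters in short windows, and binding was not measured.

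Signals are the linear values that the authors deposited, 1 per probe set and array, each array scaled by them to the same trimmed mean (800.4). Of 12488 probe sets, 7309 were bright enough to be tested. Changes are log2 fold changes with dexamethasone, given as log2 value ± SE over 4 arrays on each side with the adjusted p of limma's test. A probe set was called where the adjusted p was under 0.05 in a linear model of log2 signal on dexamethasone with retinoic acid as covariate. Array medians lay between 316.1 and 341.6, and between 23.3% and 25.7% of each array's values were at the floor of 85.3 below which signals were not told apart. The lung markers Sftpc (surfactant protein C of type II cells), Scgb1a1 (the secretory protein of club cells) and Ager (a type I cell receptor) were bright on every array, with lowest signals of 61590, 40350 and 22070, and none was called different. Of 23 measured genes of a list of known glucocorticoid-responsive genes, 19 rose (beside 4.17% of all probe sets) and none fell (beside 3.71%). The list was chosen with earlier results of these data known, so it is no independent check of the dexamethasone labels. Fkbp5, a co-chaperone of the receptor, was among the rises. It measured 1422 and 1519 in Dil, 900.2 and 1134 in RA, 6440 and 5917 in Dex and 6732 and 6463 in RA-Dex. All 4 dexamethasone arrays lay far above the other 4 for this gene. The receptor gene itself, Nr3c1, and the classic target Tsc22d3 were under the brightness filter and were not tested.

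Across the lung transcriptome, 576 of 7309 probe sets (7.88%) were called with 4 arrays on each side, 305 higher with dexamethasone (4.17%) and 271 lower (3.71%). Of these, 412 differed by under 2-fold, 197 higher and 215 lower. With 2 arrays on each side, 236 probe sets (3.23%) were called for Dex against Dil and 256 (3.5%) for RA-Dex against RA, with the spread taken from the same 8 arrays. The median standard error of a log2 fold change was 0.17 with 4 against 4 and 0.236 with 2 against 2. Each probe set called with 2 against 2 had a log2 fold change of at least 0.57 in size in at least 1 comparison that called it. The smallest size called with 4 against 4 was 0.342.

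The modest changes are the 246 probe sets that changed by under 2-fold and were called with 4 against 4 but in neither comparison of 2 against 2. Some missed the threshold narrowly with 2 against 2. The adjusted p of limma's test was 0.0509 for Bmp4 and for Vps37b in Dex against Dil, and 0.0515 for Acaa2 in RA-Dex against RA. Others lay further from it, such as Hey1 at 0.319 and 0.187 in these comparisons. Of the 7309 tested, 105 were higher (1.44%) and 141 lower (1.93%) in this class, and they represent 218 genes with 1 symbol by the 2016 annotation of the array. The rises had a median log2 fold change of 0.606 (1.522-fold) and ranged from 0.345 to 0.969. The falls had a median of -0.628 and ranged from -0.999 to -0.342, while the median over all tested probe sets was -0.034. Just inside the limit of 2-fold were the falls of Celsr2 (0.5004-fold) and Ptpre (0.5017-fold), and just outside it the rises of Sec14l2 (2.006-fold) and Cds2 (2.035-fold). None of the 246 had an array at the floor. All 4 dexamethasone arrays lay above all 4 others in 91 of the 105 rises, and below them in 129 of the 141 falls, which the choice of called probe sets largely fixes. Over all tested probe sets the same held for 497 (6.8%) and 569 (7.78%).

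**Figure D1:**
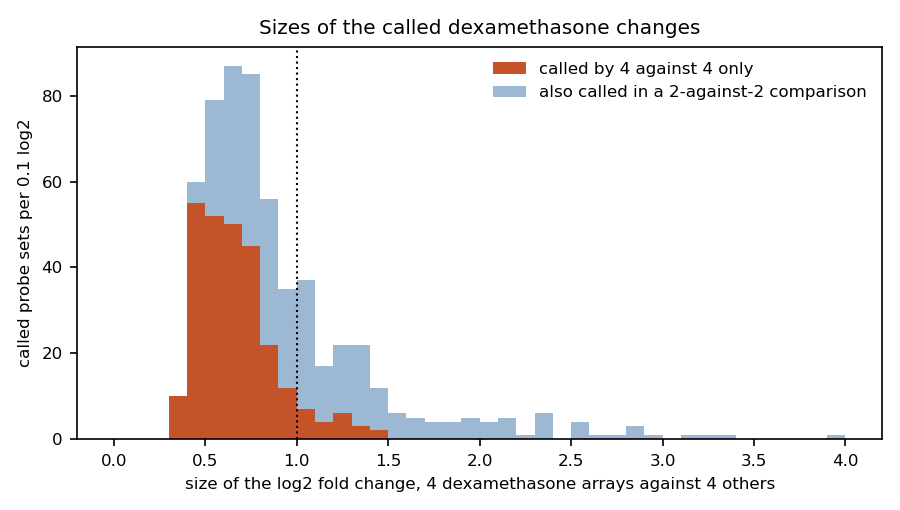
Histogram of the size of the log2 fold change (horizontal axis) of the 576 called probe sets, in bins of 0.1, with the number of probe sets on the vertical axis; orange, called with 4 arrays against 4 alone (268); blue, also called in at least 1 comparison of 2 against 2 (308). The dotted line is the 2-fold limit, and the orange part begins at 0.342 and thins out beyond it.

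Many of these calls ended when 1 array was left out. Left out 1 at a time, the arrays left from 71 of the 246 called (without RA-Dex b) to 156 (without RA a). The numbers were 91 without Dex a, 91 without Dex b, 109 without Dil b, 124 without RA b, 131 without RA-Dex a and 138 without Dil a. With no brightness filter, so that 12422 probe sets shared the adjustment, 67 stayed called, and where the model did not let the spread follow the signal, 121 did. Under a test that asks for a change beyond a log2 fold change of 0.2, 29 stayed called. All 246 kept their direction in every other fit that tested them (212 of them under a stricter filter). The choice of called probe sets largely fixes this, since the other fits share most or all of the same arrays. The 24 genes named next are those with the smallest p on each side, and none lost its call when 1 array was left out.

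**Figure D2:**
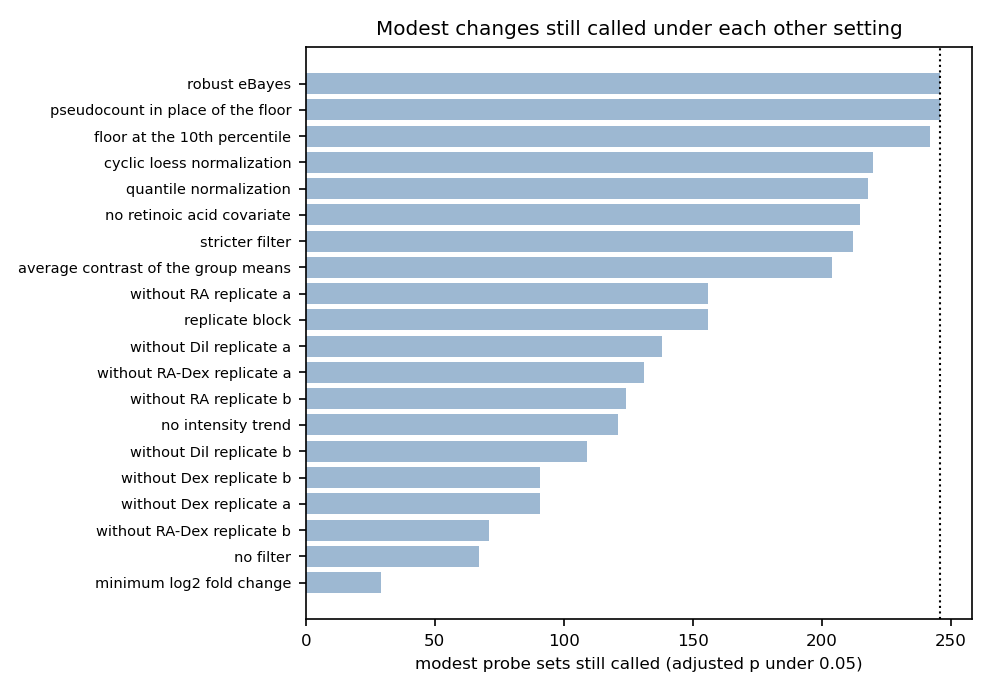
Number of the 246 modest probe sets that stayed called at an adjusted p under 0.05 (horizontal axis) in each other fit (vertical axis), with the dotted line at 246. The counts run from 29 with a minimum fold change to 246 with a pseudocount or a robust fit, and leaving out RA-Dex b lowered the count more than leaving out any other array.

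Among the 12 leading modest rises were genes of lipid oxidation, autophagy, membrane transport and the response to stress and inflammation. Rgs2, which shortens signalling through Gq-coupled receptors, had signals of 1301 and 757.2 in Dil, 1258 and 1113 in RA, 2013 and 1898 in Dex and 2138 and 2477 in RA-Dex. All 4 dexamethasone arrays were above all others, and Rgs2 rose (log2 0.97 ± 0.16, adjusted p = 0.00274). Anxa1, annexin A1, a mediator of the anti-inflammatory action of glucocorticoids, measured 5230 and 3273 in Dil, 4279 and 4847 in RA, 7743 and 7026 in Dex and 6801 and 7446 in RA-Dex. It rose (log2 0.74 ± 0.14, adjusted p = 0.00579), and its 2 other probe sets also rose, by 0.83 and 0.85. The groups did not overlap, although the pair of Dil arrays lay further apart than any other pair.

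Gabarapl1, an Atg8-family protein of the autophagosome membrane, had signals of 2563 and 2054 in Dil, 2295 and 2685 in RA, 4015 and 3368 in Dex and 3889 and 3992 in RA-Dex, and it rose (log2 0.67 ± 0.12, adjusted p = 0.00357). The dexamethasone arrays again lay above all others (log2 0.68 ± 0.17 without retinoic acid and 0.67 ± 0.17 with it). Acaa2, the thiolase that ends each round of mitochondrial fatty acid oxidation, rose by the least of the 12 (log2 0.47 ± 0.08, adjusted p = 0.00361), from signals of 14400 and 16280 in Dil, 16400 and 17320 in RA, 22070 and 19980 in Dex and 23480 and 23790 in RA-Dex. Its 4 signals on each side were close together, so that a 1.39-fold difference stood clear of the spread. Abcg2, an efflux transporter of xenobiotics, measured 873.2 and 494.5 in Dil, 532.8 and 587.6 in RA, 1236 and 1098 in Dex and 1070 and 1251 in RA-Dex and rose (log2 0.94 ± 0.18, adjusted p = 0.00638). Here the Dil pair was spread widely, and its higher array came closest to the dexamethasone arrays.

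**Figure D3:**
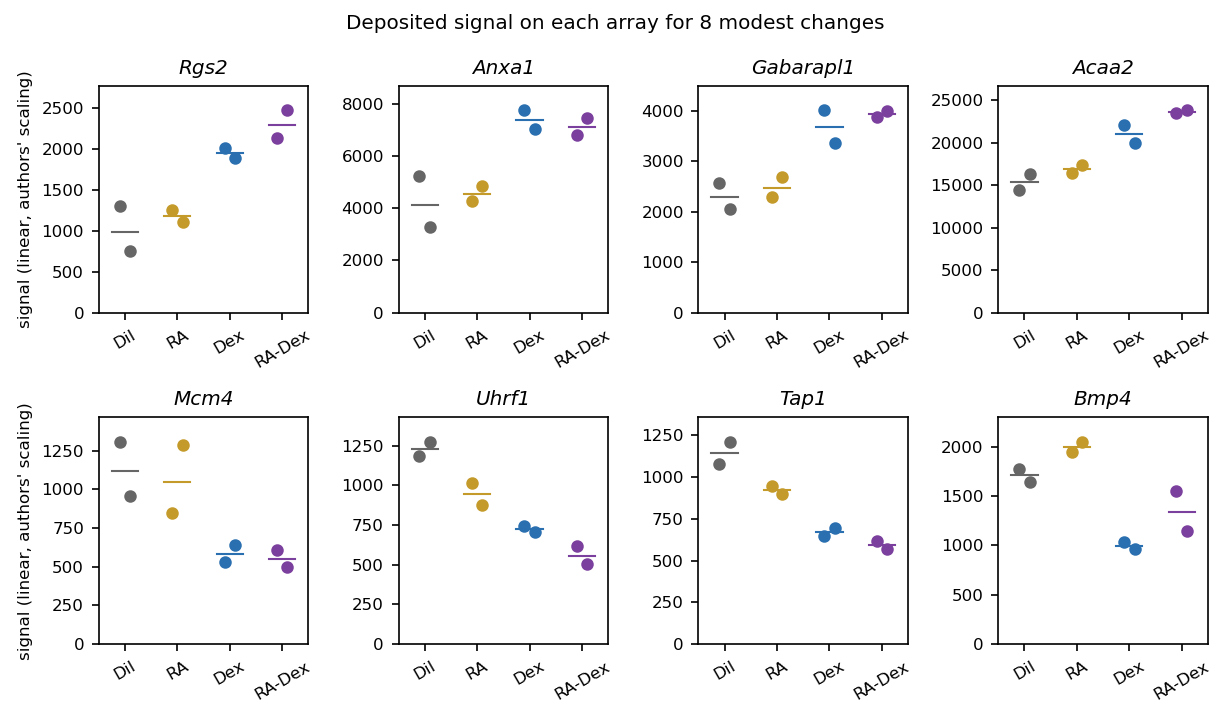
Deposited linear signal (vertical axes, each from 0) on every array for 4 modest rises (top) and 4 modest falls (bottom), by group; points are arrays and bars are the geometric means of the 2 arrays of a group. In each panel the Dex and RA-Dex points lie all above or all below the Dil and RA points, as for Rgs2 with 1898 to 2477 against 757.2 to 1301.

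Of the other leading rises, Tmem38b, a cation channel of the endoplasmic reticulum, rose (log2 0.77 ± 0.13, adjusted p = 0.00339) and Man2a1, a mannosidase that trims sugars on glycoproteins in the Golgi (log2 0.61 ± 0.11, adjusted p = 0.00486). B3gnt2, which lengthens sugar chains with N-acetylglucosamine, rose (log2 0.86 ± 0.17, adjusted p = 0.00826). Hsph1, a large heat shock protein that serves Hsp70 as exchange factor, rose (log2 0.65 ± 0.13, adjusted p = 0.00913). The transcription factors Mafk (log2 0.60 ± 0.12, adjusted p = 0.0092) and Mef2b (log2 0.60 ± 0.12, adjusted p = 0.00985), and Anapc16, a subunit of the anaphase-promoting complex (log2 0.62 ± 0.13, adjusted p = 0.00987), completed the 12. In each of them the 4 dexamethasone arrays were above all others. The calls of Rgs2, Anxa1, Abcg2 and B3gnt2 ended when no brightness filter was used (adjusted p between 0.0581 and 0.0884), and those of Acaa2, Hsph1, Mafk, Mef2b and Anapc16 when a minimum change was asked for (between 0.064 and 0.0796).

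The 12 leading modest falls included the DNA replication genes Mcm2 and Mcm4 and the antigen processing gene Tap1, described with their lists below, and genes of sterol synthesis, DNA methylation and growth factor signalling. Sqle, squalene epoxidase of cholesterol synthesis, had signals of 1950 and 1512 in Dil, 1105 and 1214 in RA, 1051 and 1014 in Dex and 687.6 and 699.7 in RA-Dex. The RA arrays were close to the Dex arrays, and Sqle fell (log2 -0.74 ± 0.13, adjusted p = 0.00357), each dexamethasone pair being below its own partner pair. It was the 1 called gene among 13 measured genes of cholesterol synthesis and uptake, whose median was -0.077. Uhrf1, which brings DNA methyltransferase to newly copied DNA, measured 1186 and 1275 in Dil, 1014 and 878.4 in RA, 744.6 and 707.7 in Dex and 616.6 and 503.3 in RA-Dex and fell (log2 -0.76 ± 0.13, adjusted p = 0.00379). All of its dexamethasone arrays were below all others, and the RA pair was below the Dil pair.

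Bmp4, a bone morphogenetic protein that patterns lung epithelium and mesenchyme, had signals of 1777 and 1645 in Dil, 1945 and 2050 in RA, 1034 and 963.8 in Dex and 1551 and 1148 in RA-Dex. It fell (log2 -0.68 ± 0.13, adjusted p = 0.0069), with no overlap of the groups, and its second probe set fell by 0.70. Akap12, a scaffold that anchors protein kinase A, fell (log2 -0.89 ± 0.16, adjusted p = 0.00432) from signals of 1477 and 1360 in Dil, 1216 and 1398 in RA, 823.7 and 640.1 in Dex and 599.4 and 914.3 in RA-Dex. Chil1, a chitinase-like protein of type II cells and macrophages, fell (log2 -0.64 ± 0.12, adjusted p = 0.00577). Vps37b, of the ESCRT-I complex that sorts membrane proteins for the lysosome, fell (log2 -0.77 ± 0.15, adjusted p = 0.00709), and Gpn1, a GTPase that helps bring RNA polymerase II into the nucleus (log2 -0.65 ± 0.12, adjusted p = 0.0063). Phlda3, a p53 target that restrains Akt, fell (log2 -0.63 ± 0.12, adjusted p = 0.00709) and Thap4 (log2 -0.66 ± 0.12, adjusted p = 0.00389). All dexamethasone arrays were below all others for each of these 7 genes. Their calls held in every other fit, save that of Akap12 without the brightness filter (adjusted p = 0.0581) and that of Phlda3 with a minimum change (0.0559).

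The smallest changes called were in bright genes with little spread. Tubb5, a beta-tubulin, fell (log2 -0.34 ± 0.09, adjusted p = 0.0307) from signals of 16730 and 17720 in Dil, 17480 and 16850 in RA, 13930 and 14740 in Dex and 13690 and 12050 in RA-Dex. Ran, the GTPase of nuclear transport, fell (log2 -0.35 ± 0.09, adjusted p = 0.0442), Map1lc3b, an Atg8-family partner of autophagy, rose (log2 0.35 ± 0.10, adjusted p = 0.0469) and Tceal9 rose (log2 0.37 ± 0.10, adjusted p = 0.0469). For each the groups did not overlap. Each of these 4 calls ended when any 1 of 7 of the 8 arrays was left out: Tubb5, Ran and Tceal9 stayed called without Dil a, and Map1lc3b without RA b. Second probe sets of Tubb5, at -0.29 (adjusted p = 0.114), and Tceal9, at 0.16 (adjusted p = 0.575), were not called. The means over probe sets of Tubb5, Tceal9 and Map1lc3b were not called either (adjusted p = 0.0538, 0.174 and 0.059).

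Genes of DNA replication gave falls with dexamethasone. Of 27 measured members of the list, 9 fell and none rose, beside 3.71% of all probe sets called lower, and the median log2 fold change was -0.408. A lower signal in whole lung can come from fewer cells of a kind or from less RNA in each, which cannot be told apart here. The MCM proteins form the ring-shaped helicase that unwinds DNA at the fork. Mcm5 fell (log2 -1.01 ± 0.15, adjusted p = 0.00129), Mcm3 (log2 -0.89 ± 0.13, adjusted p = 0.0014), Mcm4 (log2 -0.93 ± 0.17, adjusted p = 0.00575), Mcm2 (log2 -0.75 ± 0.13, adjusted p = 0.00402) and Mcm7 (log2 -0.70 ± 0.14, adjusted p = 0.0072). Mcm4 and Mcm2 were reached only with 4 against 4.

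Mcm4 had signals of 1308 and 955.3 in Dil, 850.1 and 1285 in RA, 531.1 and 642.3 in Dex and 609.9 and 499.5 in RA-Dex. Its highest dexamethasone array was below its lowest other array, although the Dil and RA pairs were each spread widely. Mcm2 measured 1130 and 1302 in Dil, 996.1 and 888.5 in RA, 670.5 and 800.5 in Dex and 564.2 and 531.2 in RA-Dex, again with no overlap. The call of Mcm4 ended without the brightness filter (adjusted p = 0.0695), and those of Mcm2, Mcm3, Mcm5 and Mcm7 held in every other fit.

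Factors that load or follow the helicase were also among the falls. Cdt1, which loads the MCM ring onto origins, had signals of 1182 and 1154 in Dil, 1266 and 1297 in RA, 561.4 and 837.3 in Dex and 894 and 663.6 in RA-Dex and fell (log2 -0.75 ± 0.16, adjusted p = 0.0111), with a second probe set at -0.78. All its dexamethasone arrays were below all others, and the call ended without RA-Dex b (adjusted p = 0.0514). Pcna, the sliding clamp that holds the polymerase on DNA, fell (log2 -0.44 ± 0.11, adjusted p = 0.0338) from 3761 and 3487 in Dil, 3510 and 2955 in RA, 2793 and 2499 in Dex and 2210 and 2623 in RA-Dex. Of the subunits of DNA polymerase delta, the catalytic Pold1 fell (log2 -0.53 ± 0.13, adjusted p = 0.0273) and so did Pold2 (log2 -0.50 ± 0.14, adjusted p = 0.0485). The second probe set of Pold1, at 0.34 (adjusted p = 0.555), pointed the other way, and the mean of both was not called (0.811). The calls of Pcna, Pold1 and Pold2 ended when 1 of several arrays was left out: Pcna stayed called without RA b or RA-Dex b, Pold1 without Dex a, Dil a or Dil b, and Pold2 without RA b. Of all 27 members 25 were below 0, and the exceptions, neither of them called, were Cdc7 at 0.69 (adjusted p = 0.15) and Rpa3 at 0.17. The 9 falls became 5 without the brightness filter, 5 with a minimum change and 6 to 8 with 1 array left out.

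Genes of mitosis did not show these falls. Of 29 measured, 3 rose (beside 4.17% of all probe sets), none fell and the median was 0.301, with 27 values above 0. Smc4, of the condensin complex that packs chromosomes, had signals of 1542 and 1236 in Dil, 1654 and 1246 in RA, 2478 and 2379 in Dex and 1776 and 2265 in RA-Dex, and it rose (log2 0.65 ± 0.15, adjusted p = 0.0174). Prc1, which bundles the microtubules of the spindle midzone, measured 1871 and 1075 in Dil, 739.8 and 913 in RA, 2171 and 1807 in Dex and 1382 and 1446 in RA-Dex and rose (log2 0.63 ± 0.18, adjusted p = 0.0469). Ccnb2, a cyclin of the entry into mitosis, measured 5119 and 5818 in Dil, 3158 and 2943 in RA, 6437 and 6226 in Dex and 5030 and 4724 in RA-Dex and rose (log2 0.45 ± 0.12, adjusted p = 0.0368). Smc4 showed no overlap of the groups, whereas for Prc1 1 Dil array, and for Ccnb2 both, lay above the RA-Dex arrays.

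Averaged over the mitosis list, signals were 1761 and 1630 in Dil, 1093 and 1184 in RA, 1871 and 1808 in Dex and 1473 and 1436 in RA-Dex, so the sides overlap. The list's median was 0.168 for Dex against Dil and 0.476 for RA-Dex against RA, and this difference between the arms was not tested for the list. The same mean for the replication genes was 1153 and 1075 in Dil, 978.4 and 1062 in RA, 821.0 and 809.4 in Dex and 712.6 and 721.9 in RA-Dex, and its sides do not overlap. None of the 3 mitotic rises held in every fit: the count fell to 0 without Dex a, without Dex b, without RA-Dex b, without the brightness filter, with a minimum change and where the spread did not follow the signal.

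**Figure D4:**
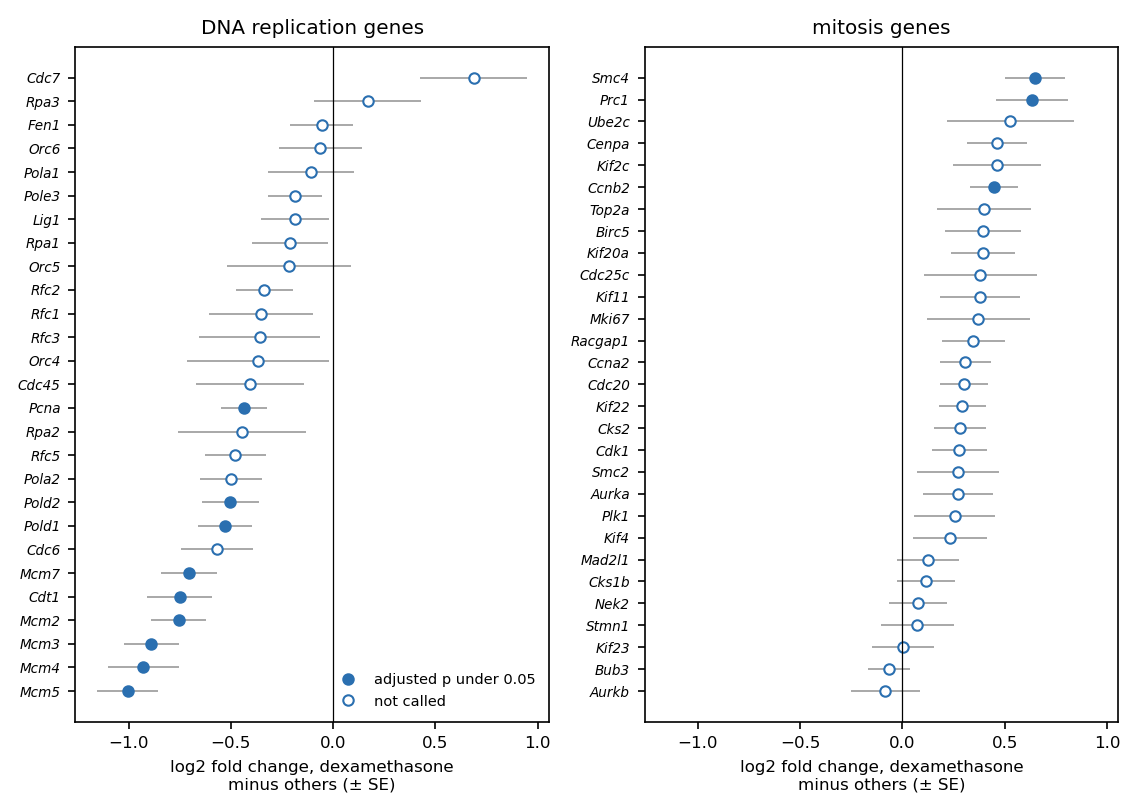
Log2 fold change with dexamethasone (horizontal axes, ± SE, 4 arrays against 4) of the 27 measured genes of DNA replication (left) and the 29 of mitosis (right); filled points have an adjusted p under 0.05. On the left 25 of 27 points lie below 0 and 9 are filled, and on the right 27 of 29 lie above 0 and 3 are filled.

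Genes of the nucleolus, where ribosomes are assembled, were mostly below 0 as well. Of 23 measured, 3 fell (beside 3.71% of all probe sets), none rose, 22 were below 0 and the median was -0.351. Gar1 and Nhp2 belong to the particles that pseudouridylate ribosomal RNA and Nop56 to those that methylate it, and Gar1 fell (log2 -0.88 ± 0.14, adjusted p = 0.00161), as did Nhp2 (log2 -0.62 ± 0.17, adjusted p = 0.0442) and Nop56 (log2 -0.86 ± 0.23, adjusted p = 0.0419). Gar1 kept its call in every fit, while Nhp2 kept its call only without RA b and Nop56 only without Dil b or RA a when arrays were left out, and both calls ended under quantile normalization (adjusted p = 0.055 and 0.0613). None of the 23 measured ribosomal protein genes, 31 translation factors, 57 subunits of oxidative phosphorylation and 31 proteasome subunits was called, with medians of -0.126, -0.049, -0.067 and -0.061, and an unadjusted p under 0.05 in 2, 3, 0 and 2 of them. In the same order 21, 17, 37 and 20 of them were below 0, so ribosomal protein genes were mostly below 0 too. Single genes were called among the 20 enzymes of nucleotide synthesis, Cad (log2 -1.64 ± 0.36, adjusted p = 0.0158), and the 19 aminoacyl-tRNA synthetases, Vars (log2 -0.73 ± 0.15, adjusted p = 0.009). The fall of Cad, which starts pyrimidine synthesis, rests partly on 2 Dex signals under the floor. It was -2.60 for Dex against Dil and -0.68 for RA-Dex against RA, where it was not called (adjusted p = 0.39). The call of Cad ended without Dil b (adjusted p = 0.0525) and without the brightness filter (adjusted p = 0.165).

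The signals of septation were split. Of 54 measured growth factor and morphogen genes, 7 rose, 5 fell and the median was -0.215, beside 4.17% and 3.71% of all probe sets. Among ligands, Vegfc, which drives lymphatic growth, had signals of 429.1 and 276.1 in Dil, 379 and 475.4 in RA, 753.8 and 730.3 in Dex and 608.1 and 841.4 in RA-Dex and rose (log2 0.93 ± 0.20, adjusted p = 0.0113). Bmp5, a further bone morphogenetic protein, measured 407.7 and 468.3 in Dil, 335.3 and 433.8 in RA, 230.1 and 263.4 in Dex and 167.2 and 212.2 in RA-Dex and fell (log2 -0.92 ± 0.22, adjusted p = 0.0231). Pdgfa, the ligand that septal fibroblasts require, fell (log2 -0.65 ± 0.10, adjusted p = 0.0021), while its receptor Pdgfra rose (log2 0.87 ± 0.13, adjusted p = 0.00164), though a second Pdgfra probe set was at 0.05 (adjusted p = 0.945). Vegfc lost its call without RA-Dex b (adjusted p = 0.0555) and without the brightness filter (0.0883), and Bmp5 without Dex a, Dil b, RA b or RA-Dex a.

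Among receptors, Fzd4, a Wnt and norrin receptor of blood vessels, rose (log2 0.48 ± 0.11, adjusted p = 0.0224) from 2465 and 2757 in Dil, 2984 and 2727 in RA, 3195 and 4162 in Dex and 3954 and 3984 in RA-Dex. Fgfr4, a fibroblast growth factor receptor, fell (log2 -0.61 ± 0.15, adjusted p = 0.0249) from 1050 and 1151 in Dil, 827.7 and 803.1 in RA, 675.4 and 741.3 in Dex and 646.1 and 455.6 in RA-Dex. Notch1, the receptor, fell (log2 -0.45 ± 0.11, adjusted p = 0.0282), and Hey1, a transcription factor that Notch turns on, rose (log2 0.41 ± 0.11, adjusted p = 0.0451). Smad1, which carries bone morphogenetic protein signals to the nucleus, rose (log2 0.55 ± 0.13, adjusted p = 0.0258). For all of these the groups did not overlap. The calls are fragile: leaving out 1 array ended that of Fzd4 for 5 of the 8 arrays, of Smad1 for 5, of Fgfr4 for 4, of Notch1 for 6 and of Hey1 for all 8. A second Notch1 probe set was at -0.19, and the mean of both was not called (adjusted p = 0.391). A second Smad1 probe set, at 0.36, was not called (adjusted p = 0.16), and neither was the mean of both (adjusted p = 0.055). The secreted binding proteins Fst and Igfbp6, which trap activins and insulin-like growth factors, rose in every fit that tested them. Fst was tested in 20 of 21 other fits. It measured 25.46 and 132.2 in Dil and 130.7 and 17.72 in RA, with 2 of these under the floor. On the dexamethasone arrays it was between 697 and 786.9, and it passed the brightness filter only through them. Vegfa (log2 -0.22 ± 0.15, adjusted p = 0.464) was not called.

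Of the extracellular matrix genes, 2 of 23 collagens and collagen enzymes, 1 of 12 elastic fibre genes and 1 of 21 basement membrane genes and integrins were called, beside 7.88% of all probe sets. Among the collagens and their enzymes, P4ha2, a prolyl hydroxylase, rose (log2 0.79 ± 0.14, adjusted p = 0.0033) and Col13a1, a transmembrane collagen, fell (log2 -0.58 ± 0.14, adjusted p = 0.0249), with a second probe set at -0.71. Col1a1 (log2 -0.21 ± 0.11, adjusted p = 0.306) was not called. Among elastic fibre genes, Lox, the enzyme that cross-links elastin, rose (log2 1.69 ± 0.13, adjusted p = 8.6e-06), but its second probe set was at -0.52 (adjusted p = 0.452), and the mean of both was not called (adjusted p = 0.0894). For Eln, elastin itself, the brighter probe set (log2 0.19 ± 0.10, adjusted p = 0.333) was not called, while the dimmer one rose (log2 0.60 ± 0.16, adjusted p = 0.0345). Lama4, the laminin chain of vessel basement membranes, measured 3312 and 3457 in Dil, 2379 and 3461 in RA, 5188 and 4528 in Dex and 4616 and 4703 in RA-Dex and rose (log2 0.61 ± 0.13, adjusted p = 0.0108), the 1 call among basement membrane genes and integrins. The call of Col13a1 ended without Dex b, Dil a, RA-Dex a or RA-Dex b.

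Markers of smooth muscle moved apart from each other. Tagln, transgelin, which binds actin filaments, had signals of 7684 and 8358 in Dil, 7192 and 9220 in RA, 5909 and 5483 in Dex and 6459 and 5450 in RA-Dex and fell (log2 -0.48 ± 0.11, adjusted p = 0.0179). Csrp1 fell (log2 -0.42 ± 0.11, adjusted p = 0.0401) and Actg2 fell (log2 -0.45 ± 0.12, adjusted p = 0.0445). Rgs5, a pericyte marker, measured 348.5 and 397.6 in Dil, 209.2 and 375.3 in RA, 714.8 and 646.8 in Dex and 483.2 and 561.1 in RA-Dex and rose (log2 0.88 ± 0.20, adjusted p = 0.0197). Acta2, smooth muscle actin (log2 -0.11 ± 0.11, adjusted p = 0.639), was not called, and the median of the 14 measured genes was -0.162, with 1 rise and 3 falls beside 4.17% and 3.71% of all probe sets. The 3 falls were called in the fit of all arrays but none was called without Dex b, Dil b, RA b or RA-Dex b, and 5 were called under quantile normalization. Rgs5 lost its call without Dex a, Dil a or RA-Dex b.

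Skeletal muscle markers varied with these groups too. The list's mean signal was 1101 and 1087 in Dil, 792.5 and 674.3 in RA, 676.2 and 567.9 in Dex and 737.4 and 742.4 in RA-Dex. Of 11 measured, Myl1 and Tnni1, a light chain and a troponin of muscle fibres, fell, Myl1 (log2 -1.36 ± 0.23, adjusted p = 0.00327) and Tnni1 (log2 -0.44 ± 0.11, adjusted p = 0.0249), beside 3.71% of all probe sets. Myl1 measured 1028 and 1100 in Dil, 486.8 and 508.8 in RA, 588.7 and 257.2 in Dex and 200.7 and 212.8 in RA-Dex, and its sides overlapped, since 1 Dex array was above both RA arrays. The median of the list was -0.609 for Dex against Dil and 0.103 for RA-Dex against RA. Tnni1 lost its call without Dex a, Dex b, Dil a, Dil b or RA-Dex b, and Myl1 without the brightness filter (adjusted p = 0.0692). Cardiac markers, with 8 measured and none called (1 with an unadjusted p under 0.05), had medians of -0.504 and 0.123 in the same comparisons. Their part in the falls of contractile genes was not tested.

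Endothelial genes gave calls in both directions. Of 32 measured, Ace, the angiotensin-converting enzyme of the capillary surface, rose (log2 0.93 ± 0.15, adjusted p = 0.00221) and Gata2 (log2 0.63 ± 0.11, adjusted p = 0.00402), whereas Gja4, Kdr, Lmo2 and Efna1 fell, with log2 fold changes of -1.44, -0.86, -0.79 and -0.73. These 2 rises and 4 falls stand beside 4.17% and 3.71% of all probe sets. The median was 0.037, and Flt1, a VEGF receptor (log2 0.05 ± 0.15, adjusted p = 0.893), was not called. Of these calls only that of Ace was lost in another fit, without the brightness filter (adjusted p = 0.0504).

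Among epithelial markers, type I cell genes Hopx and Pdpn rose, at 0.62 and 1.15, and type II cell genes Muc1, Lpcat1 and Chil1 fell, at -0.66, -0.70 and -0.64, of 6 and 8 measured, beside 4.17% of all probe sets called higher and 3.71% lower. The list medians were 0.193 for type I and -0.003 for type II, where 4 of the 8 members were above 0. Sema3b, of the type I list, was at -1.19 and was not called (adjusted p = 0.0718), although 1 type I gene was called lower without RA b and 1 without RA-Dex a. Without the brightness filter neither Hopx nor Pdpn was called (adjusted p = 0.0745 and 0.151). Sftpc (log2 -0.02 ± 0.10, adjusted p = 0.94) and Ager (log2 0.05 ± 0.09, adjusted p = 0.821) were not called. Of 9 measured airway genes, 3 oxidising enzymes rose, beside 4.17% of all probe sets: Cyp4b1, a cytochrome P450 (log2 0.67 ± 0.09, adjusted p = 0.00076), Aldh1a1, which makes retinoic acid from retinal (log2 0.45 ± 0.09, adjusted p = 0.0113), and Fmo1, a flavin-containing monooxygenase (log2 0.41 ± 0.11, adjusted p = 0.0317). Scgb1a1, the defining club cell product, was at -0.04 and was not called. Aldh1a1 lost its call without RA-Dex b (adjusted p = 0.0567), and Fmo1 kept its call only without Dil b or RA a when arrays were left out. Krt19, a keratin, was the 1 call among 3 measured mesothelial genes (log2 0.55 ± 0.11, adjusted p = 0.00771).

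Genes of antigen presentation and of leukocytes gave falls with dexamethasone. Of 16 measured genes of the MHC list, 3 fell (beside 3.71% of all probe sets), none rose, 15 were below 0 and the median was -0.382. Tap1, a subunit of the transporter that carries peptides to MHC class I, had signals of 1078 and 1210 in Dil, 943.8 and 897.5 in RA, 649.4 and 692.8 in Dex and 616.4 and 567.9 in RA-Dex and fell (log2 -0.70 ± 0.13, adjusted p = 0.00509). Psmb8 and Psmb10, subunits of the immunoproteasome that cuts those peptides, fell, Psmb8 (log2 -0.50 ± 0.13, adjusted p = 0.0401) and Psmb10 (log2 -0.64 ± 0.17, adjusted p = 0.0438). Tap1 showed no overlap of the groups, but its second, dimmer probe set was at -0.15 (adjusted p = 0.834) and the mean of both was not called (adjusted p = 0.161). The sides overlapped for Psmb8 and Psmb10. Psmb8 kept its call only without RA-Dex a and Psmb10 only without Dex a or Dil a when arrays were left out.

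The class I heavy chain genes H2-D1 (log2 -0.43 ± 0.12, adjusted p = 0.053) and H2-K1 (log2 -0.34 ± 0.10, adjusted p = 0.0655) were not called. No class II gene was called with 4 against 4. Cd74, the invariant chain, was at -0.78 for Dex against Dil (called, adjusted p = 0.0195, limma) and 0.20 for RA-Dex against RA (adjusted p = 0.594), and H2-Ab1 was at -0.95 and 0.20 (adjusted p = 0.111 and 0.802). Neither had a called difference between the arms (adjusted p = 0.578 and 0.811). The mean signal of the MHC list was 2863 and 3072 in Dil and 2015 to 2313 in the 6 other arrays, so RA arrays lay near the dexamethasone arrays.

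Macrophage markers gave 4 falls among 18 measured (beside 3.71% of all probe sets), with a median of -0.39. Their mean signal was 1536 to 1623 on the dexamethasone arrays and 1925 to 2174 on the others. Coro1a, an actin-binding protein of leukocytes, fell (log2 -0.90 ± 0.13, adjusted p = 0.00113), Tyrobp, a signalling adaptor (log2 -0.82 ± 0.14, adjusted p = 0.00279), Csf1r, the receptor macrophages need to survive (log2 -0.59 ± 0.15, adjusted p = 0.0326), and Laptm5, a lysosomal membrane protein of leukocytes (log2 -0.51 ± 0.12, adjusted p = 0.0244). Laptm5 had signals of 3191 and 3683 in Dil, 4362 and 3324 in RA, 2399 and 2431 in Dex and 2947 and 2416 in RA-Dex, which did not overlap between the sides. The complement genes C1qa and C1qb, at 0.06 and -0.04, and Mrc1, at 0.27, were not called. Coro1a and Tyrobp were called in every fit. Second probe sets of Csf1r and Laptm5 were at -0.16 and -0.06 (adjusted p = 0.759 and 0.876), and the means over probe sets were not called. Without Dex a, Dex b or Dil b 2 macrophage calls were left.

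B and T cell markers were measured for 9 of 26 genes on the array, the others being too dim. All 9 were below 0, with a median of -0.808, and without the brightness filter the median over all 26 was -0.28, with 3 falls. Of the 9, 4 fell, beside 3.71% of all probe sets: Ltb, a lymphotoxin subunit (log2 -1.41 ± 0.20, adjusted p = 0.0008), Ighm, the heavy chain of IgM (log2 -0.81 ± 0.13, adjusted p = 0.00261), Cd79b, of the B cell receptor (log2 -0.83 ± 0.20, adjusted p = 0.0211), and Ms4a1, which encodes CD20 (log2 -0.55 ± 0.15, adjusted p = 0.0439). Ms4a1 measured 580.2 and 625.3 in Dil, 762.6 and 750.8 in RA, 366.9 and 463.8 in Dex and 540.7 and 487 in RA-Dex, with all dexamethasone arrays below all others, and a second probe set fell by 0.76. Its call ended when any 1 array was left out, and that of Cd79b without Dex a, Dex b, Dil a, Dil b or RA b. The mean signal of the list was 344.2 to 521.6 on the dexamethasone arrays and 679.5 to 759.9 on the others. None of 7 neutrophil and 6 erythroid markers was called (2 and 1 with an unadjusted p under 0.05). Among 12 interferon-stimulated genes, Rsad2 rose (log2 0.82 ± 0.14, adjusted p = 0.00266) and the median was -0.102.

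Metabolic and catabolic genes rose in part. Of 27 genes of fatty acid and lipid handling, 5 rose and 2 fell (beside 4.17% and 3.71% of all probe sets), with a median of 0.146. The larger rises were those of Lpl (log2 2.32 ± 0.19, adjusted p = 9.9e-06) and Lpin1 (log2 2.59 ± 0.35, adjusted p = 0.00068). Lpin1 had 1 Dil array under the floor and lost its call without the brightness filter (adjusted p = 0.0614). The 5 rises became 2 without the brightness filter or with a minimum change, and the 2 falls became 1 and 0. Beside Acaa2, Pnpla2, the lipase that starts the breakdown of stored fat, rose (log2 0.73 ± 0.18, adjusted p = 0.0255) and Scd2, a desaturase (log2 0.52 ± 0.14, adjusted p = 0.0352), while Hadh, of the step before the thiolase, fell (log2 -0.51 ± 0.11, adjusted p = 0.0151) and Scd1, a second desaturase (log2 -0.53 ± 0.13, adjusted p = 0.0275). Scd1 had signals of 5784 and 6082 in Dil, 10620 and 10200 in RA, 5150 and 4707 in Dex and 5197 and 6930 in RA-Dex. Its RA arrays were far above all others and its Dil arrays lay within the range of the RA-Dex arrays, so the sides overlapped. Scd2 measured 11890 and 7915 in Dil, 7657 and 9541 in RA, 12740 and 12930 in Dex and 12100 and 14780 in RA-Dex, and a second Scd2 probe set was at 0.14 (adjusted p = 0.626). When arrays were left out, Pnpla2 lost its call for 5 of the 8, Scd2 for 6, Scd1 for 5 and Hadh without RA-Dex a or RA-Dex b.

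Of 32 lysosome and autophagy genes, 5 rose (beside 4.17% of all probe sets) and none fell, with a median of 0.094. Without the brightness filter 3 rose, and Ctsl was not among them (adjusted p = 0.0549). Beside Gabarapl1 and Map1lc3b these were Bnip3, a receptor for the removal of mitochondria (log2 1.98 ± 0.23, adjusted p = 0.00014), and the proteases Ctsh (log2 1.06 ± 0.10, adjusted p = 3.5e-05) and Ctsl (log2 0.66 ± 0.12, adjusted p = 0.00584). A second probe set of Map1lc3b (log2 0.36 ± 0.13) was not called (adjusted p = 0.128). Of 21 chaperones and unfolded protein genes of the endoplasmic reticulum, 2 rose (beside 4.17% of all probe sets). The median of the list was 0.052, and 8 members were below 0. The rises were Herpud1 (log2 1.01 ± 0.11, adjusted p = 8.2e-05) and Dnajb9, a co-chaperone of BiP (log2 0.64 ± 0.17, adjusted p = 0.0428). When arrays were left out, Dnajb9 stayed called only without RA-Dex a. Of 12 clock genes, Per2 and Nfil3 rose (beside 4.17% of all probe sets), by 1.36 and 0.97, and the median was 0.164. Per2 lost its call without the brightness filter (adjusted p = 0.0659). A second Nfil3 probe set, at 0.81, was not called (adjusted p = 0.317), and neither was the mean of both (adjusted p = 0.0529).

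**Figure D5:**
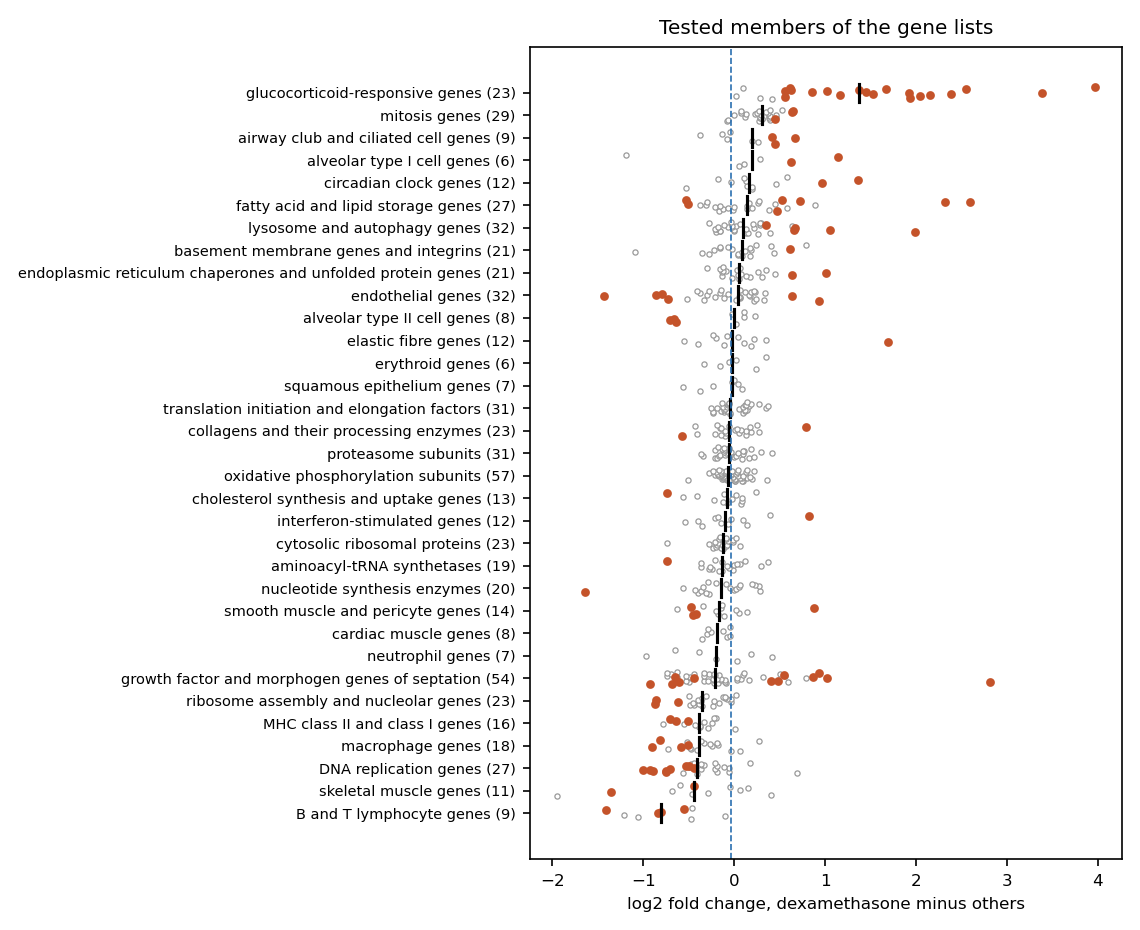
Log2 fold change with dexamethasone (horizontal axis, 4 arrays against 4) of the tested members of each gene list with at least 6 of them (number in brackets), ordered by median; orange points have an adjusted p under 0.05, open points do not, black bars are list medians and the dashed line is the median of all tested probe sets, -0.034. Medians run from -0.808 for B and T lymphocyte genes to 1.375 for glucocorticoid-responsive genes.

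The model takes the dexamethasone effect to be the same with and without retinoic acid. The test of the difference called 1 of 7309 probe sets (0.0137%), for Erdr1, and 409 had an unadjusted p under 0.05. A p above the threshold elsewhere does not show that the effects are alike, since the difference between 2 comparisons of 2 against 2 is less precise than either.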

How the data were processed

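Whole-lung RNA of mice was hybridised to 8 Affymetrix expression arrays. The authors deposited 1 intensity per probe set and array on a linear scale, which the values show had been scaled to a 2% trimmed mean of 800.4 on every array (highest over lowest, 1.00004); the sources used here do not name the software, and no detection calls entered the analysis. As arrays have no read depth, their number limits the precision. Here 66 control probe sets were left out, signals under 85.3 (pooled 25th percentile) were set to that value, log2 was taken, and probe sets with a mean above the log2 of 200.8 (pooled 40th percentile) were kept, 7309 of 12422. No further normalization was applied. Genes were named from a 2016 platform annotation, with 10817 symbols updated by Entrez ID against RefSeq; 10833 probe sets had 1 symbol, 396 several and 1193 none. A gene is represented by its tested probe set of highest mean signal; of 37 other tested probe sets of the named genes, 33 had the same sign and 15 were called. Mean signals of lists average the linear signals of different probe sets, so the brightest members weigh most in them. Apart from these means, signals of different genes were not set against each other.

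limma 3.58.1 in R 4.3.3 was fitted to all 8 arrays with terms for dexamethasone and retinoic acid (5 residual degrees of freedom, prior 7.05), with eBayes following the signal and two-sided p-values, and Benjamini-Hochberg adjustment ran over all 7309 probe sets. A second limma fit with 1 mean per group (4 residual degrees of freedom, prior 6.69) gave the comparisons of 2 against 2 and the interaction. These share the arrays of the first fit and are not independent of it. The fits were tested on simulated data.

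The members and the 34 gene lists were chosen with earlier results of these data known. Named genes are the 12 rises and 12 falls of smallest p among the modest changes, up to 4 called members of each list by smallest p, the 4 called genes of smallest change and 11 genes given always. In addition 25 called list members and genes were named after their values were seen, as were Celsr2, Ptpre, Sec14l2, Cds2 and the uncalled list members given by value. Alternatives were quantile and cyclic loess normalization, no or a stricter filter (60th percentile), a pseudocount of 50 or a 10th percentile floor, eBayes without the trend or robust, the average of the group-mean contrasts, no retinoic acid term, a replicate block, averaging the probe sets of each gene, leaving out each array, and testing against a minimum log2 fold change of 0.2.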

Additional observations from a re-analysis of the deposited data

Results flagged for a closer look

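For each named gene that was tested, the 4 arrays on each side were checked for a highest or lowest array that stood apart by more of the side's whole log2 range than Dixon's 95% limit allows, which chance does for about 1 group in 20. Of 244 such sides, 11 had one. Since each side holds arrays with and without retinoic acid, an array can also stand apart from arrays of another treatment. On the side without dexamethasone, RA a was highest for Anapc16 (0.918 of the range) and lowest for Lama4 (0.883), Gstt1 (0.895) and Per2 (0.937), the clock gene. Dil a was lowest for P4ha2 (0.913) and Pdgfa (0.862), Dil b for Gstk1 (0.900) and RA b for Gata2 (0.873). On the side with dexamethasone, Dex a was highest for Krt19 (0.856), RA-Dex a highest for Laptm5 (0.936) and RA-Dex a lowest for Tuba1a (0.862). RA a accounts for 4 of the 11.

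The dexamethasone effect differed with and without retinoic acid for Erdr1. Its signals were 7064 and 8363 in Dil, 14030 and 12290 in RA, 259.5 and 307.4 in Dex and 5591 and 5723 in RA-Dex. The fall was -4.77 without retinoic acid and -1.22 with it on the log2 scale, a difference of 3.55 (adjusted p = 6.8e-05, limma). A second, dimmer probe set of Erdr1 gave a difference of -0.29 (adjusted p = 0.954), and when probe sets of a gene were averaged no interaction was called.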

How the results depend on the processing

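The fit of 4 against 4 called 305 probe sets higher and 271 lower, of which 105 and 141 were modest and called in no comparison of 2 against 2, and 1 interaction. Without the filter these counts were 169, 148, 63, 92 and 22, with 12422 probe sets in the adjustment. With a minimum log2 fold change of 0.2 the first 4 were 173, 104, 11 and 18. Counting as modest only changes under 1.5-fold left 46 and 63. Averaging the probe sets of a gene left 0 interactions. With 1 array left out, the counts lay between 208 and 306 higher, 147 and 249 lower, 78 and 125 modest higher, 83 and 128 modest lower and 1 and 2 interactions, the lowest count of lower probe sets being without RA-Dex b. All other settings kept these counts within 1.5 times. The differences of a minus b correlated between groups by -0.22 to 0.14. With 1 such difference per group, these values cannot show whether the letters a and b pair the arrays. With the letter as a replicate block 262 probe sets were higher, 209 lower, 103 and 120 modest, and 1 had an interaction. In that fit 156 of the 246 modest probe sets stayed called. Of 114 named genes called, 43 were called in every fit that tested them. None reversed, which the choice of called genes on the same arrays largely fixes. Fitted on their own 4 arrays, the comparisons of 2 against 2 called 180 and 199 probe sets in place of 236 and 256. The cause of these shifts was not tested. Dim probe sets also limit the account: 9 of the 26 lymphocyte genes on the array, for example, were bright enough to be tested.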

Other observations

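The tubulins, the subunits of microtubules, were looked at as a family because Tubb5 was among the smallest called falls, and so were chosen after their values were seen. Of 12 measured, 4 fell (beside 3.71% of all probe sets), none rose and the median log2 fold change was -0.297. Tubb3 fell (log2 -0.57 ± 0.12, adjusted p = 0.00923), with signals of 3101 and 3616 in Dil, 3212 and 4077 in RA, 2411 and 2237 in Dex and 2453 and 2291 in RA-Dex. Tuba1a fell (log2 -0.58 ± 0.14, adjusted p = 0.0281), as did a second probe set of it by 0.50, with signals of 25840 and 45520 in Dil, 27880 and 28760 in RA, 21370 and 21760 in Dex and 19090 and 21490 in RA-Dex, and Tubb2a fell (log2 -0.40 ± 0.10, adjusted p = 0.0346). Their dexamethasone arrays were all below all others. The call of Tuba1a ended when any 1 of 5 of the 8 arrays was left out and that of Tubb2a for 6, and both ended without the brightness filter (adjusted p = 0.242 and 0.0859). Second, dimmer probe sets of Tubb3 and Tubb2a were at 0.38 and 0.26 and were not called, so averaging the probe sets of each gene ended both calls (adjusted p = 0.723 and 0.862). Tubulin genes include near-identical copies, so which of them a probe set measured is uncertain. Tubg2, a gamma-tubulin of the centrosome, was at 0.58 (adjusted p = 0.339).

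Enzymes that detoxify aldehydes and conjugate glutathione were also chosen after their values were seen. Of 7 aldehyde dehydrogenases 2 rose, Aldh1a1 and Aldh2, beside 4.17% of all probe sets, and the median was 0.298. Aldh2, the mitochondrial enzyme, had signals of 5352 and 5432 in Dil, 5075 and 5504 in RA, 7662 and 7544 in Dex and 9299 and 8924 in RA-Dex. It rose (log2 0.64 ± 0.10, adjusted p = 0.00141), and its 2 other probe sets rose by 0.62 and 0.47. Of 15 glutathione S-transferases 2 rose and 1 fell, beside 4.17% and 3.71% of all probe sets. The median was -0.024, and 9 were below 0. The rises were Mgst3 (log2 0.61 ± 0.13, adjusted p = 0.0102) and Gstk1 (log2 0.64 ± 0.16, adjusted p = 0.0307), and the fall was Gstt1 (log2 -0.79 ± 0.13, adjusted p = 0.00244). The call of Gstk1 ended when any 1 of 6 of the 8 arrays was left out, and without the brightness filter those of Gstk1 and Mgst3 ended (adjusted p = 0.193 and 0.0698). Hsd11b1, the enzyme that turns inactive 11-keto glucocorticoids into active ones, had signals of 1201 and 1595 in Dil, 1394 and 1827 in RA, 2213 and 1973 in Dex and 2449 and 2574 in RA-Dex and rose (log2 0.62 ± 0.14, adjusted p = 0.0136), with all dexamethasone arrays above all others. Its call ended without Dex a or RA-Dex b.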
